A study of Mus musculus with 6 samples.

Results

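The genes described here are 10 that are known in mouse for parental imprinting, H19, Igf2, Peg3, Plagl1, Mest, Dlk1, Meg3, Cdkn1c, Grb10 and Ndn. They were chosen by name, and every non-control array probe whose RefSeq accession belongs to one of them was taken, which gave 18 probes for 10 of the 23462 genes that could be named on the array. The arrays hold 56605 different non-control probes. The tested genotype, KCS, carries Ptf1aCre, an oncogenic allele that Cre switches on, and Setdb1flox/flox (n = 3), and its reference, KC, carries Ptf1aCre and the same allele without Setdb1flox/flox (n = 3). Both are C57BL/6 mice, and both therefore share the Cre and the oncogenic allele. Ptf1a is active in pancreatic progenitors and acinar cells, so Cre from this locus acts in the pancreatic lineage and not in stromal or immune cells. All samples are labelled as isolated acinar cells, and their ages and sexes are not given in the sources used here. Nothing in the labels ties a sample to its own animal, so the p-values measure the spread between these samples, which may be in part technical.

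An imprinted gene is transcribed mainly from the copy inherited from one parent. The choice is written as DNA methylation on control regions in the germ line, and afterwards ZFP57 and related zinc finger proteins bind the methylated copy and bring in TRIM28, which recruits the H3K9 methyltransferase SETDB1. Many imprinted genes act on fetal growth, are abundant in embryonic tissues and fall in level after birth, and in mouse several of the 10 have been described as a network of co-expressed genes around the transcription factor PLAGL1. H19, Meg3, Cdkn1c and, outside the brain, Grb10 are expressed from the maternal copy, and Igf2, Peg3, Plagl1, Mest, Dlk1 and Ndn from the paternal one. An array reads the sum of both copies, so none of the values below says which copy was transcribed.

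Values are log2 of the scanner signal relative to the 75th percentile of each array (scaled log2 signal). On this scale 5 of the 10 genes passed the test with their brightest probe: H19, Cdkn1c and Ndn were higher and Igf2 and Dlk1 lower in KCS. The other 5, Peg3, Plagl1, Mest, Meg3 and Grb10, did not pass. Of the 18 probes 17 were well above background on at least 3 of 6 arrays and were tested, and of these 7 were called (41.2%), 3 higher and 4 lower. Over all 34485 probes tested the limma fit called 59.1% at the threshold of 0.05 on the adjusted p, with 26.8% higher and 32.3% lower. The groups did not overlap on 5 of the 17 probes, against 67.3% of all probes tested. The share among the imprinted gene probes was thus below that of the array as a whole. The median difference (KCS minus KC) was -0.08 over the 17 probes and -0.12 over all probes tested. The passing filter can favour probes that are high in one group, so these counts describe the 17 probes and are no test of the genes as a set.

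**Figure D1:**
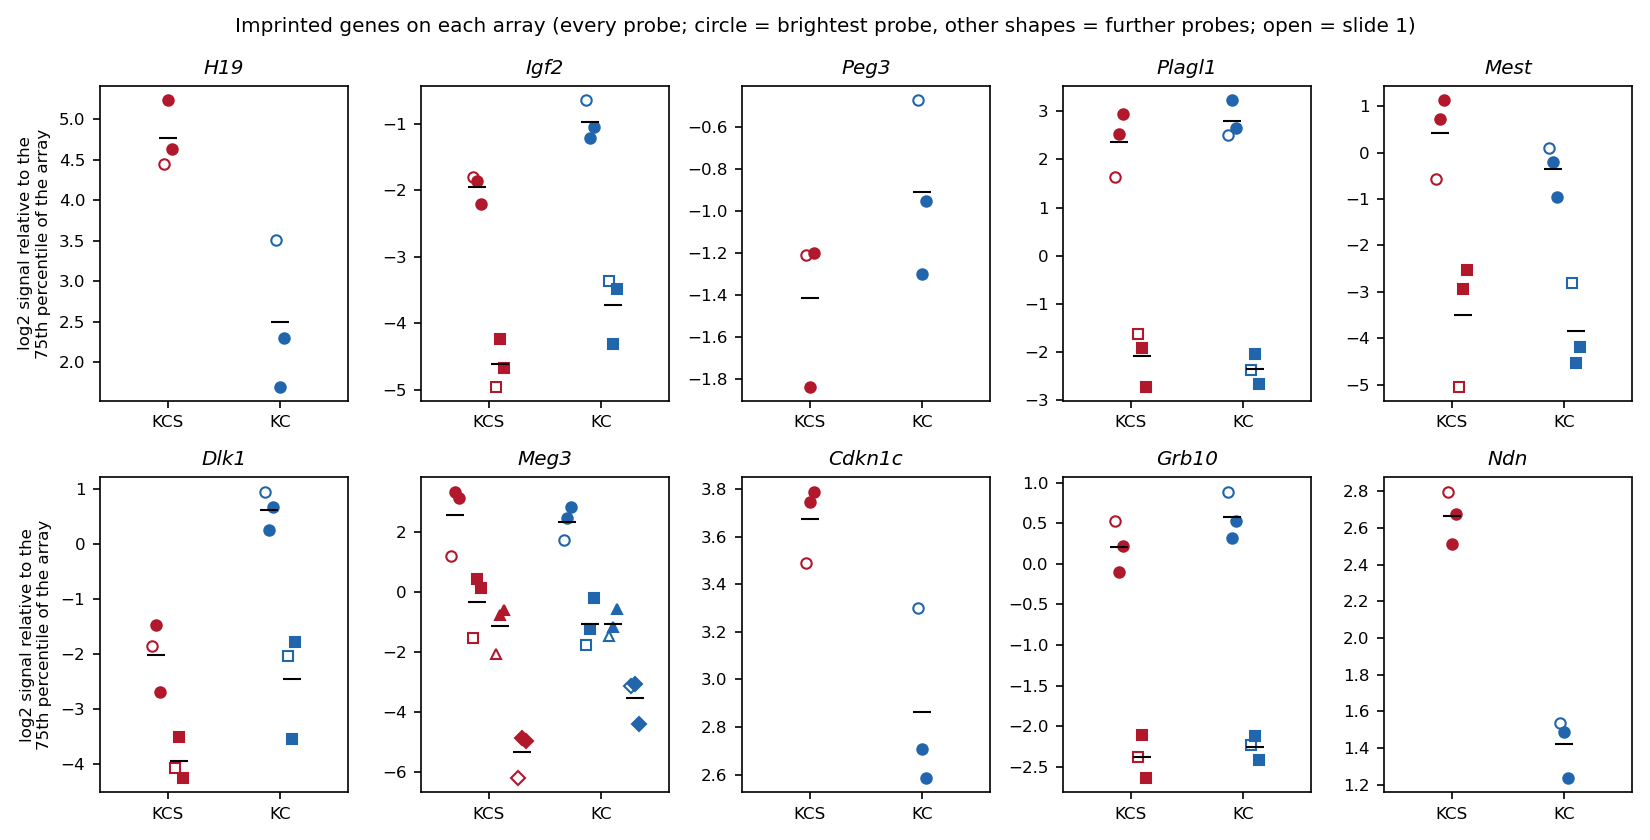
Scaled log2 signal (log2 of the processed signal relative to the 75th percentile of the array) of every probe of the 10 genes on each of 3 KCS arrays (left, red) and 3 KC arrays (right, blue). Circles are the brightest probe of a gene, other shapes its further probes, open symbols the arrays of slide 1, and bars the group means. H19, Cdkn1c, Ndn and the brightest probes of Igf2 and Dlk1 do not overlap between the groups. Nor does the untested Meg3 probe, which no KC array measured above background.

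The groups differed widely in what else they held. The signal at the 75th percentile was 347 to 423 scanner units on KCS arrays and 61.2 to 68.6 on KC arrays, and the 100 brightest probes took 13.4% to 14.6% of the signal on KCS arrays and 34.4% to 37.4% on KC arrays. Scaling to spike-in controls instead moved the median difference of all probes to 2.76, where 97.2% of calls were higher, against 45.3% in the 75th percentile scaling and 59.5% with median centring. Each difference below is therefore relative to the bulk of transcripts on the array, and "lower" does not mean fewer molecules per cell. All 17 acinar markers fell (median log2 difference -10.52), 10 of them without KCS replicate 2 and 11 without KC replicate 2 or KC replicate 3. KCS replicate 3 stood apart from the other KCS arrays. Summed over the acinar markers, the scaled signal came to 4.79, 20.6 and 2586 on the KCS arrays (replicates 1 to 3), against 47880, 40489 and 44268 on the KC arrays. KCS replicate 3 thus had a far higher sum than the other KCS arrays, which was still below that of each KC array. The acinar label thus held by these markers for the KC arrays, whereas on the KCS arrays the acinar sum was below the fibroblast and macrophage sums in replicates 1 and 2 and above both in replicate 3. Of the 17 markers 8 were not well above background on every KCS array, so their differences are not exact sizes. Without KCS replicate 3, H19 was at 2.34 (limma adjusted p = 0.0168), Ndn at 1.23 (0.00589), the brightest probe of Igf2 at -0.86 (0.0294) and that of Dlk1 at -2.29 (0.00167), while Cdkn1c was at 0.75 and did not pass (0.0711). Of 20 fibroblast and stellate cell markers 19 rose (median 3.17, summed signal 1578 to 1983 in KCS and 186 to 246 in KC), as did 12 of 13 macrophage markers, while the remaining one fell without KC replicate 1 (median 4.01, 659.9 to 898 in KCS and 72.1 to 100.5 in KC). The lipase gene Pnlip had an unscaled signal of 2.08, 5.72 and 57.7 units in KCS, well above background on replicate 3 alone, against 155372, 143835 and 135478 units in KC (limma adjusted p = 1.35e-04), and its size is not given as a fold since the other KCS arrays did not measure it. The chymotrypsin-like gene Ctrl had 29.7, 30.5 and 927 units in KCS against 219727, 169011 and 161927 units in KC (limma adjusted p = 3.73e-04). Among fibroblast genes the collagen genes Col1a2 and Col5a1 rose by 3.12 ± 0.17 and 3.24 ± 0.18. Among macrophage genes Aif1 rose by 5.38 ± 0.28 while the Fc receptor gene Fcgr1, which no KC array measured above background, was at least 56.3-fold higher (limma adjusted p = 7.61e-05, 7.67e-05, 6.96e-05 and 6.00e-05 in the order named). In bulk samples, fewer cells of a type and less RNA per cell cannot be told apart. The probe of Setdb1, the gene with loxP sites in KCS, had -0.28, -0.44 and -0.55 in KCS against -0.91, -1.05 and -0.32 in KC, a difference of 0.33 ± 0.24 (SE, limma adjusted p = 0.270). It was at 0.69 with median centring and 3.21 with spike-in scaling and passed in both (limma adjusted p = 0.0432 and 1.32e-05). Where it lies relative to the loxP sites is not known here, so it checks nothing about the genotype.

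H19, a maternally expressed non-coding RNA and one of the most abundant transcripts of fetal endoderm and mesoderm, had the largest rise of the 17 probes tested. Its scaled log2 signal was 4.45, 5.23 and 4.63 in KCS against 3.51, 1.70 and 2.31 in KC. All KCS arrays were above all KC arrays, and KC replicate 1 stood above the other KC samples. The difference was 2.27 ± 0.48 (SE, n = 3 per group, limma adjusted p = 0.00680), a 4.81-fold higher signal. The arrays came from 2 slides, which were also scanned apart, the first with replicate 1 of each group and the second with replicates 2 and 3. Within slide 1 the difference was 0.94 and within slide 2 it was 2.93, and with the slide as a block the limma adjusted p was 0.00887. With arrays left out one at a time it ran from 1.86 to 2.77, and each of these fits passed. The first exon of H19 holds the hairpin of a microRNA, whose mature strands are shown because they are the part of the H19 transcript with a known sequence-specific role, silencing matching messenger RNAs. The seed, bases 2 to 8, is in capitals, and the sequences are those of RefSeq on GRCm38.p6, chr7:142577112-142577133 and chr7:142577078-142577099, minus strand.
mmu-miR-675-5p: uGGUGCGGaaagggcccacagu
mmu-miR-675-3p: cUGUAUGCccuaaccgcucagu
The array signal is that of the long transcript, and the amount of the microRNA was not measured here.

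Igf2, the fetal insulin-like growth factor and the paternally expressed neighbour of H19 on chromosome 7, went the other way. Its brightest probe had -1.80, -1.86 and -2.22 in KCS against -0.65, -1.22 and -1.04 in KC, with every KCS array below every KC array. It fell by 0.99 ± 0.23 on the log2 scale (SE, limma adjusted p = 0.00914, 1.98-fold lower) at 75th percentile scaling, but was 1.89 with spike-in scaling (adjusted p = 7.83e-04), and with median centring it was -0.63 and did not pass (adjusted p = 0.0720). Before any scaling its signal was 113, 116 and 74.7 scanner units in KCS against 42.4, 29.5 and 29.7 in KC, so the probe was lower only relative to the other probes of the array. These 3 scalings shift all probes by the same amount, so its value of -0.87 relative to the median of all probes is the same in each by construction. The values within slide 1 and slide 2 were -1.15 and -0.91, and with the slide as a block the limma adjusted p was 0.00582. The second Igf2 probe had -4.95, -4.23 and -4.67 in KCS and -3.37, -4.31 and -3.48 in KC. It was well above background on no KC array, so its KC level is only an upper bound and its call (-0.90 ± 0.32, limma adjusted p = 0.0493) sets no direction. That call was lost with the slide as a block (adjusted p = 0.0658) and without any of 4 single arrays, KCS replicates 1 and 3 and KC replicates 1 and 3 (adjusted p = 0.107 to 0.137).

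H19 and Igf2 share enhancers, and a CTCF-bound control region between them directs these to one gene or the other on each copy. The difference between their brightest probes within an array is not changed by a scaling that adds the same amount to every probe. Quantile normalization or another background correction can change it. It was 6.25, 7.09 and 6.84 in KCS against 4.16, 2.92 and 3.35 in KC. All KCS arrays were higher, and the change in H19 minus Igf2 was 3.25 (6.73 ± 0.43 in KCS and 3.47 ± 0.63 in KC, SD, n = 3), with 2.10 within slide 1 and 3.83 within slide 2. An exact two-sided permutation test gave p = 0.1 (0.1 also adjusted over the 2 pairs compared, which were picked after the values were seen), the smallest p that 3 against 3 arrays allow. H19 and Igf2 each separated the groups, in opposite directions at 75th percentile scaling. This p therefore could not have been larger and adds nothing to their single results. With spike-in scaling both genes were called higher in KCS, H19 at 5.14 and Igf2 at 1.89.

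Dlk1, a transmembrane protein with EGF repeats that holds back differentiation of preadipocytes and other progenitors, had the largest fitted fall of the 17 probes tested. Its brightest probe had -1.85, -1.48 and -2.68 in KCS against 0.95, 0.26 and 0.67 in KC, and the groups lay apart by more than the spread within either. It fell by 2.63 ± 0.36 on the log2 scale (SE, limma adjusted p = 0.00109, 6.19-fold lower) at 75th percentile scaling and stood at 0.25 when arrays were scaled to the spike-ins (adjusted p = 0.616), while all probes had a median of 2.76. Relative to that median it was -2.51, which no such scaling can change. The unscaled signal was 109, 152 and 54.0 scanner units in KCS and 129, 82.0 and 97.3 in KC, so the groups overlapped there while most probes were brighter on KCS arrays. Within slide 1 and slide 2 it was -2.81 and -2.54, and each fit with 1 array left out passed. The second Dlk1 probe had -4.06, -3.49 and -4.25 in KCS and -2.03, -3.54 and -1.77 in KC, where replicate 2 was not well above background and fell among the KCS values. It fell by 1.49 ± 0.49 (limma adjusted p = 0.0365), a call lost with the slide as a block (adjusted p = 0.0503) and without any single array other than KC replicate 2 (adjusted p = 0.0505 to 0.108).

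Islet endocrine markers, like the acinar ones, were lower in KCS, as was Dlk1, a gene that islet cells express in adult mice. Of 17 such markers 13 fell and 1 rose (median -2.12, or -2.00 relative to all probes) at 75th percentile scaling, and 1 fell and 9 rose with spike-in scaling. None rose with any KCS array, KC replicate 1 or KC replicate 2 left out. The summed signal of these markers was 152, 170 and 259 on the KCS arrays (replicates 1 to 3). It was 937, 1087 and 1014 on the KC arrays. Within each group, the array with the highest sum (KCS replicate 3, KC replicate 2) had the lowest signal of the brightest Dlk1 probe. The insulin gene Ins2, named after its values were seen, was at -2.74 ± 0.29 and the prohormone convertase genes Pcsk1 and Pcsk2 at -3.79 ± 0.30 and -2.12 ± 0.16 (limma adjusted p = 4.28e-04, 1.83e-04 and 1.52e-04). With spike-in scaling these stood at 0.14, -0.92 and 0.76. Of the 17 islet markers 16 were well above background on all 3 KCS arrays and 15 on all 3 KC arrays, and their part in the Dlk1 difference was not tested.

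Meg3, the maternally expressed non-coding RNA that lies next to Dlk1 on chromosome 12 under the same control region, did not pass with any of its 3 tested probes. The brightest had 1.23, 3.36 and 3.16 in KCS and 1.75, 2.49 and 2.84 in KC, and the groups overlapped (0.22 ± 0.61, SE, limma adjusted p = 0.771). The other tested probes were at 0.74 ± 0.62 (adjusted p = 0.338) and -0.08 ± 0.45 (adjusted p = 0.894). On all 3 probes the array of slide 1 was the lowest of its group, in KCS as in KC. Within slide 1 and slide 2 the brightest was at -0.52 and 0.59. The remaining probe was measured above background on 2 KCS arrays and no KC array and was not tested. Meg3 minus Dlk1, taken within each array, was 3.08, 4.83 and 5.84 in KCS against 0.80, 2.24 and 2.17 in KC. The change in this pair was 2.85 (4.58 ± 1.39 in KCS and 1.73 ± 0.81 in KC, SD, n = 3), again with all KCS arrays higher and the smallest possible p of 0.1 in the exact two-sided permutation test, and it was 2.29 within slide 1 and 3.13 within slide 2. The brightest Dlk1 probe alone differed by -2.63 and that of Meg3 by 0.22, so the change in the pair was mostly that of Dlk1. This pair too was picked after the values were seen, and its p shows no change of Meg3. The non-coding RNAs Rian and Mirg of the same cluster, singled out after their values were seen, rose by 0.71 ± 0.22 and 1.16 ± 0.37 (limma adjusted p = 0.0303 and 0.0321). Within slide 1 and slide 2 Rian was at 0.19 and 0.96 and Mirg at 0.22 and 1.63, and with normexp background correction Mirg was at 0.25 and did not pass (adjusted p = 0.412).

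The promoter windows of this reciprocally imprinted pair are shown because one member fell while the other did not pass. They are RefSeq windows of 250 bases before to 50 bases after an annotated start, on GRCm38.p6, plus strand, at chr12:109452573-109452872 and chr12:109540746-109541045. Capitals mark the hexamer that ZFP57 binds when methylated, TGCCGC, on either strand.
Dlk1: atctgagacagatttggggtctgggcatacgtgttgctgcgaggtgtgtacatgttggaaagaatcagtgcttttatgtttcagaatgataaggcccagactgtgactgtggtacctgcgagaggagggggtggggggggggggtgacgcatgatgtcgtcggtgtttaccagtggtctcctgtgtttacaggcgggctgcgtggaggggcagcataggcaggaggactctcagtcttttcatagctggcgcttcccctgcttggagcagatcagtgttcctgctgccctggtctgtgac
Meg3: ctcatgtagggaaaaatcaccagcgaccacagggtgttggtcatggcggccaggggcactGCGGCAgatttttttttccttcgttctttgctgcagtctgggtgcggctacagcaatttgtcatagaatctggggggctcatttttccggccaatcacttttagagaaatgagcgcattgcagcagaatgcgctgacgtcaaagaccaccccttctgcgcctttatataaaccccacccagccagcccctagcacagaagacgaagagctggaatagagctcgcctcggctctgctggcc
The Meg3 window held 1 hexamer and 13 CpG dinucleotides and the Dlk1 window 0 and 9, against a median of 7 CpG over all 32851 windows of the table. Of those windows 11.6% held the hexamer. Among the 15 windows of the 8 genes with an entry, 6 windows of 5 genes held it (Igf2, Grb10, Meg3, Mest and Plagl1). These windows included a pair of nearly identical Mest windows, and the hexamer itself holds a CpG. The shares are thus no measure of enrichment. H19 and Cdkn1c had no entry. A match of letters is a description and not a binding site.

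Cdkn1c encodes p57, an inhibitor of cyclin-dependent kinases that halts progenitor division, and lies in the imprinted domain beside that of H19 and Igf2. It had 3.49, 3.75 and 3.79 in KCS against 3.30, 2.71 and 2.59 in KC. All KCS arrays were above all KC arrays, though KC replicate 1 came within 0.19 of KCS replicate 1, which is also the difference within slide 1. It rose by 0.81 ± 0.24 (SE, limma adjusted p = 0.0258, 1.75-fold higher), with 1.12 within slide 2 and a limma adjusted p of 0.0302 with the slide as a block. The call was lost without KCS replicate 2 (adjusted p = 0.0817), KCS replicate 3 (0.0711), KC replicate 2 (0.0723) or KC replicate 3 (0.0765). H19 and Cdkn1c thus shared a high KC replicate 1.

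Ndn encodes necdin, a protein of the MAGE family that restrains cell division in neurons and mesenchymal progenitors. It was the most even of the changed genes. Its signal was 2.80, 2.51 and 2.68 in KCS against 1.54, 1.49 and 1.24 in KC, with a gap between the groups far wider than either. It rose by 1.24 ± 0.18 (SE, limma adjusted p = 0.00147, 2.36-fold higher), was 1.26 and 1.23 within slide 1 and slide 2, and ran from 1.15 to 1.32 with 1 array left out. With spike-in scaling Ndn was at 4.12, H19 at 5.14 and Cdkn1c at 3.69, each above the median of all probes there. The fibroblast and stellate markers and the macrophage markers given above moved the same way as these 3 genes, and so did 11 of 13 endothelial markers (median 1.19, summed signal 61.2 to 125 in KCS and 37.5 to 43.5 in KC), a list in which 6 rose without KCS replicate 1 or KCS replicate 2. Of 13 ductal markers 6 rose and 2 fell (median 1.21). The vessel genes Ecscr and Eng rose by 2.69 ± 0.25 and 1.93 ± 0.29. Of 8 mesothelial markers 3 rose, Wt1 by 3.50 ± 0.26 among them (summed signal 37.6 to 132 in KCS and 6.86 to 15.7 in KC), and 5 rose without KC replicate 2. Over the brightest probes of all named genes 32.5% were called higher. The part of these cell types in the change of H19, Cdkn1c and Ndn was not tested.

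**Figure D2:**
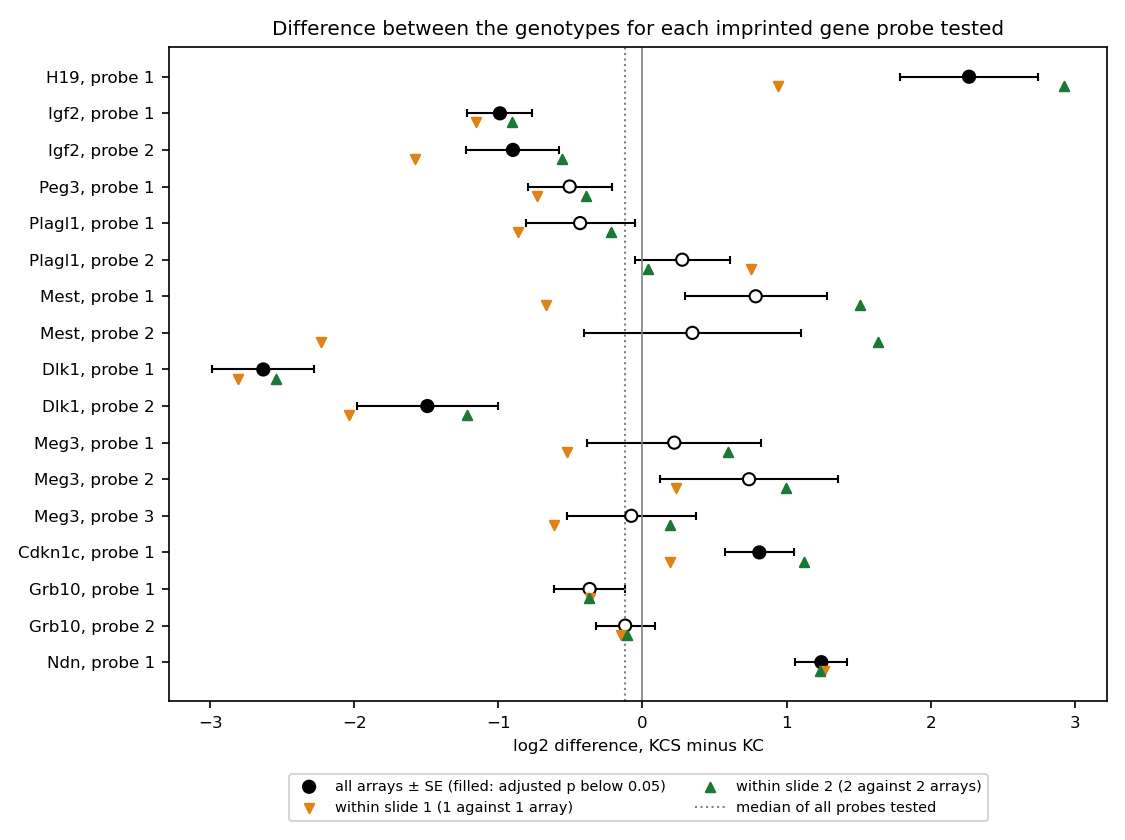
Log2 difference (KCS minus KC, x axis) of each of the 17 imprinted gene probes tested, with the SE of the limma fit, filled where the adjusted p was below 0.05, and the differences within slide 1 and slide 2 below it. The dotted line is the median of all 34485 probes tested, -0.12. Both Mest probes lie on opposite sides of 0 on the 2 slides, while Ndn and the brightest Dlk1 and Igf2 probes have nearly the same value on both.

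Mest, a membrane protein of the hydrolase fold that marks mesoderm and expanding fat tissue, differed between the slides. The brightest probe had -0.56, 0.72 and 1.13 in KCS and 0.10, -0.21 and -0.97 in KC, and the second -5.04, -2.93 and -2.52 in KCS and -2.81, -4.53 and -4.19 in KC. On both probes KCS replicate 1 was the lowest and KC replicate 1 the highest of its group. The pooled differences did not pass (0.79 ± 0.49, limma adjusted p = 0.211, and 0.35 ± 0.75, adjusted p = 0.711). Within slide 1 they were -0.67 and -2.23 and within slide 2 they were 1.51 and 1.63, and the second slide alone passed (adjusted p = 0.0223 and 0.00918). Without KCS replicate 1 the brightest probe was at 1.28 (adjusted p = 0.0309). Only 1 of 3 KC arrays, replicate 1 on slide 1, measured the second probe above background. Its difference and adjusted p on slide 2 thus rest on background signal in KC and are no exact size.

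Plagl1, the zinc finger factor of the network, was well above background in both groups and did not pass. Its signal was 1.63, 2.52 and 2.93 in KCS and 2.50, 3.23 and 2.66 in KC (-0.43 ± 0.38, SE, limma adjusted p = 0.357), and the groups overlapped. The second probe was at 0.28 ± 0.33 (adjusted p = 0.499). Peg3, a large zinc finger protein that acts in stem cells, maternal behaviour and growth, had -1.21, -1.83 and -1.20 in KCS and -0.47, -1.30 and -0.95 in KC (-0.51 ± 0.29, limma adjusted p = 0.177). Grb10, an adaptor that dampens signalling from the insulin and IGF1 receptors, had 0.52, -0.10 and 0.22 in KCS and 0.89, 0.32 and 0.53 in KC (-0.37 ± 0.24, limma adjusted p = 0.235), with the second probe at -0.12 ± 0.21 (adjusted p = 0.637). With spike-in scaling Plagl1, Peg3 and Grb10 were at 2.44, 2.37 and 2.51 on their brightest probes, all below the median of 2.76. None of these p-values shows that the levels were equal.

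The promoter windows of Mest and Plagl1, whose imprinted starts lie in methylated control regions, hold the ZFP57 hexamer in capitals, and that of Ndn, the gene that rose most evenly, holds none. They are RefSeq windows on GRCm38.p6, plus strand, with 1 of 2 nearly identical Mest windows that hold the same hexamers, at chr6:30737800-30738099, chr10:13090582-13090881 and chr7:62348027-62348326.
Mest: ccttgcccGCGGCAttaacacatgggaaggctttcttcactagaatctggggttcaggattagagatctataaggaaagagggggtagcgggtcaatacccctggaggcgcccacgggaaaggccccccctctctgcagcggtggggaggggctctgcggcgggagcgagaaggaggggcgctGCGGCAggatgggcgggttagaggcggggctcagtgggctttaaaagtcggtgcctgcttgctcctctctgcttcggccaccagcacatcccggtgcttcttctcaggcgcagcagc
Plagl1: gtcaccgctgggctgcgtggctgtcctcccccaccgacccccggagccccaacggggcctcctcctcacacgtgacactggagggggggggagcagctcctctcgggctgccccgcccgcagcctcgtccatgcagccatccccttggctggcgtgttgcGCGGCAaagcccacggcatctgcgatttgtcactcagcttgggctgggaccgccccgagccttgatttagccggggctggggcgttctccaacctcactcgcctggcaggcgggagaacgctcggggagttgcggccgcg
Ndn: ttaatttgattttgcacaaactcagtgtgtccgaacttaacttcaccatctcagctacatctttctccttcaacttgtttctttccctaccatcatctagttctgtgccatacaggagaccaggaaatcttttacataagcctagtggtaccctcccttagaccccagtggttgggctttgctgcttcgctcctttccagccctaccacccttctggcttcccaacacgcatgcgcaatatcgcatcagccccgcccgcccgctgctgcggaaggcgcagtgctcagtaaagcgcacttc
Mest had 2 hexamers and 17 CpG, Plagl1 had 1 and 26, and Ndn had 0 and 11. Genes with the hexamer included one that fell (Igf2, in 1 of its 4 windows) and several that did not pass. Those with windows but no hexamer were Ndn, which rose, Dlk1, which fell, and Peg3, which did not pass. H19 and Cdkn1c, which also rose, had no window, so the hexamer cannot be set against the direction of change.

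**Figure D3:**
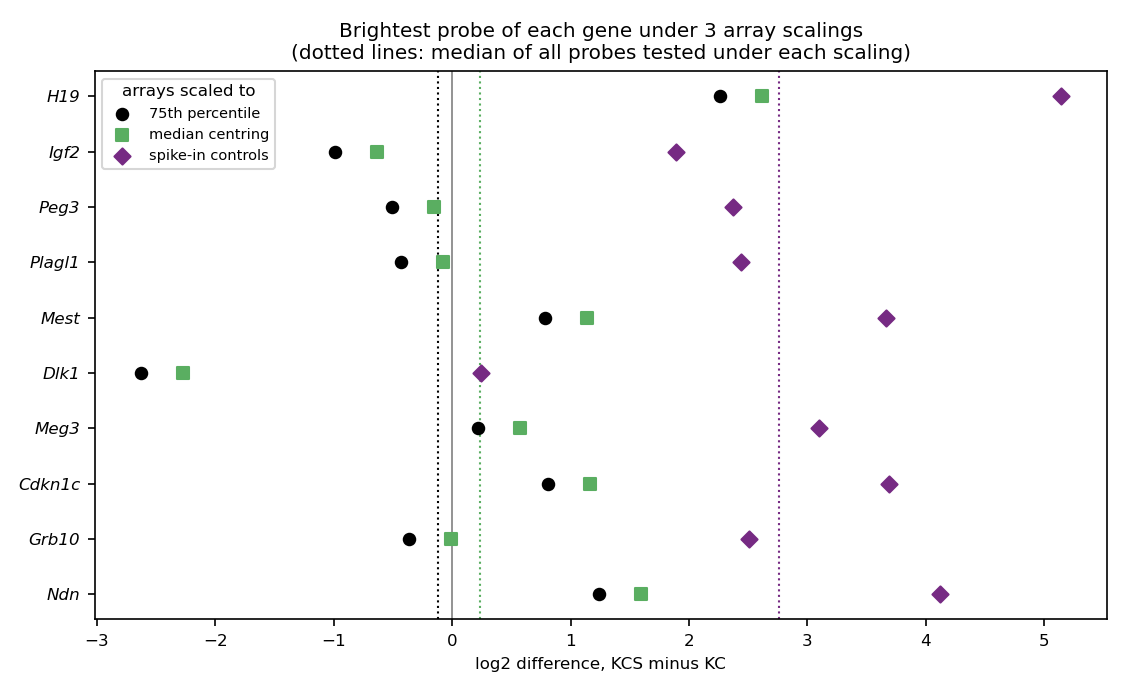
Log2 difference (KCS minus KC, x axis) of the brightest probe of each of the 10 genes with arrays scaled to the 75th percentile, to the median or to the spike-in controls, with the median of all probes tested as a dotted line in the same colour (-0.12, 0.23 and 2.76). Each scaling moves all genes and the dotted line by the same amount, so only the position of 0 differs between them, and Dlk1 and Igf2 lie left of the line.

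Among 22 further paternally expressed imprinted genes 14 were tested, of which 4 rose and 1 fell (median 0.01). Over the brightest probes of all named genes 61.6% were called, 32.5% higher and 29.2% lower. Snrpn, which encodes a splicing protein and lies in the same imprinted region of chromosome 7 as Ndn, fell by 1.99 ± 0.24 (0.34 ± 0.09 in KCS and 2.33 ± 0.39 in KC, SD, n = 3, limma adjusted p = 6.54e-04) and was at 0.89 with spike-in scaling. Dio3, a deiodinase that inactivates thyroid hormone at the far end of the Dlk1 to Meg3 cluster, and Rasgrf1, an exchange factor for RAS, were well above background on no KC array and were at least 7.72-fold and 6.58-fold higher in KCS (limma adjusted p = 7.87e-04 and 8.45e-04). With normexp background correction their log2 differences were only 0.93 and 0.94, so these bounds hold for the processed signal alone. Mcts2 rose by 1.13 ± 0.18 (adjusted p = 0.00200). Neighbours under one imprint thus included Dio3 higher and Dlk1 lower, and Ndn higher and Snrpn lower, in KCS at 75th percentile scaling. Peg10, Nap1l5, Usp29, Rtl1 and Zdbf2 were well above background on no array. Without KC replicate 1 or KC replicate 2, 2 of these genes fell.

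Of 23 further maternally expressed imprinted genes, many of them imprinted only in placenta or brain, 20 were tested, 10 rose and 5 fell (median 0.64). Fewer rose without KCS replicate 3 (5), KC replicate 1 (6) or KC replicate 3 (5). Tnfrsf23, a decoy receptor gene with close copies that can share signal, rose by 7.26 ± 0.20 (limma adjusted p = 3.74e-05) and Atp10a, a lipid flippase gene, by 2.26 ± 0.17 (1.50e-04). Gatm, a creatine synthesis gene abundant in acinar cells, fell by 3.32 ± 0.35 (4.52e-04) and the signal peptide peptidase gene H13 by 1.26 ± 0.16 (9.28e-04). With spike-in scaling all 14 tested paternally expressed genes and 18 of the 20 maternally expressed ones were called higher and 0 lower, against the all-probe median of 2.76. With quantile normalization H13 was at -0.37 and did not pass (adjusted p = 0.0817). On the spike-in scale H13 was at 1.61 and Gatm at -0.45, below the median of all probes.

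**Figure D4:**
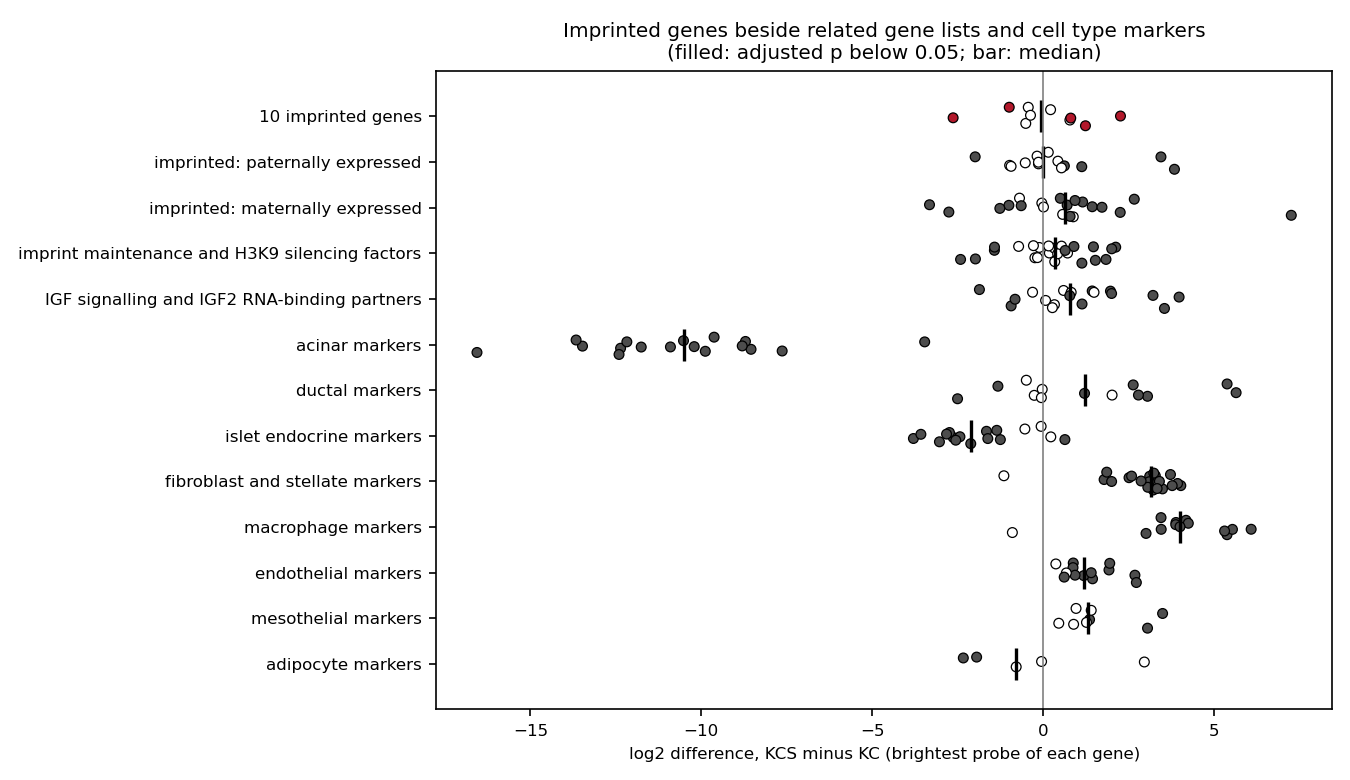
Log2 difference (KCS minus KC, x axis) of the brightest probe of each tested gene, for the 10 imprinted genes, for lists of other imprinted genes, imprint maintenance factors and IGF signalling genes, and for cell type markers. Filled points have an adjusted p below 0.05 and bars are medians. The acinar median is -10.52, over points that include 8 markers not measured above background on every KCS array, and the medians of all 3 imprinted groups lie within 1 log2 unit of 0.

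Of 25 factors of imprint maintenance and H3K9 silencing 8 rose, 4 fell and 13 did not pass (median 0.34), while 14 rose with median centring, and 24 rose and 0 fell with spike-in scaling. Trim28, the corepressor that brings SETDB1 to imprinted control regions, had 5.06 ± 0.05 in KCS and 4.88 ± 0.26 in KC (limma adjusted p = 0.438). Zfp57 had -4.11 ± 0.35 in KCS and -3.39 ± 0.56 in KC and passed background on 1 of 3 KC arrays (adjusted p = 0.108). The maintenance DNA methyltransferase gene Dnmt1 rose by 1.47 ± 0.20 (adjusted p = 0.00110), and Uhrf1, which guides it to newly copied DNA, by 2.13 ± 0.38 (0.00352), with 1.11 within slide 1 and 2.64 within slide 2. With normexp background correction Dnmt1 was at 0.17 and did not pass (adjusted p = 0.186). Morc3, a silencing ATPase, rose by 2.01 ± 0.22 (5.18e-04) and Tet1, an enzyme that oxidises methylated cytosine, fell by 1.98 ± 0.23 (6.01e-04), and was at 0.90 with spike-in scaling.

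Around Igf2, 8 of 18 tested genes of IGF signalling rose, 3 fell and 7 did not pass (median 0.80). With median centring 1 fell, and with spike-in scaling all 18 were called higher. Of the 8 that rose, 2 were measured above background on no KC array. Igfbp3 had 7.81 ± 0.40 in KCS and 4.25 ± 0.05 in KC (SD, n = 3), a rise of 3.55 ± 0.24 (SE, limma adjusted p = 1.17e-04), and Igfbp4 and Igfbp7 rose by 3.22 ± 0.20 and 1.97 ± 0.21. Igf2bp3, an RNA-binding protein of fetal and tumour cells that binds Igf2 messenger RNA, rose by 2.01 ± 0.23 (adjusted p = 5.84e-04), and was at 0.95 with normexp. Igf1r, the receptor through which IGF2 signals, fell by 0.93 ± 0.27 (adjusted p = 0.0246) and was at 1.94 with spike-in scaling. It did not pass with median centring (-0.58, adjusted p = 0.120) or normexp (-0.39, adjusted p = 0.106). Igf2r, the imprinted receptor that takes up and degrades IGF2, rose by 0.51 ± 0.18 (adjusted p = 0.0495), a call lost with the slide as a block (adjusted p = 0.0550).

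The genes whose profile over the 6 arrays was most like that of each changed gene were found as the smallest root mean square distance between profiles, each centred on its own mean, among 16256 other genes. The closest were Mettl24 for H19 (0.18 log2 units), Slc30a1 for Igf2 (0.091), Rbfox3 for Dlk1 (0.17), Nup205 for Cdkn1c (0.065) and Cmtm7 for Ndn (0.061). Of the genes that did not pass, Lmnb2 was closest to Grb10 (0.076), A730020M07Rik to Peg3 (0.12), Igsf5 to Plagl1 (0.16), Pls1 to Mest (0.21) and Eif2s3x to Meg3 (0.28). Mettl24 and A730020M07Rik were well above background on no KC array, so their likeness to H19 and Peg3 rests in part on background signal. None of these closest genes was another of the 10 imprinted genes. With 16256 genes to choose from and 6 arrays, the single closest gene cannot show whether the 10 vary together. Ductal markers, of which 6 of 13 rose and 2 fell, or 1 without KCS replicate 2 or KC replicate 2 (median 1.21, with -0.20 within slide 1 and 1.45 within slide 2, Krt7 by 5.39 ± 0.29 and Spp1 by 2.64 ± 0.19, summed signal 625 to 915 in KCS and 400.3 to 436 in KC), and adipocyte markers, of which 2 of 5 tested fell (Lep at -2.33 ± 0.24 and Fabp4 at -1.94 ± 0.38, or 0.54 and 0.93 with spike-in scaling, while 1 rose without KCS replicate 2, summed signal 6.14 to 17.8 in KCS and 29.4 to 36.9 in KC), complete the cell types looked at.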

How the data were processed

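Total RNA was labelled with Cy3 and hybridised to 6 one-colour Agilent arrays, 1 per sample. Per the file headers and the submitters' processing notes, Agilent Feature Extraction 12.0.3.1 extracted the spots, and the deposited processed signal is an intensity already corrected for background. The deposited value table holds log2 values centred on each probe's median, matching the scanner values scaled as below (r = 0.999999 or above across 36110 probes), with column medians of -0.05, -0.03 and -0.04 for KCS and -0.01, 0.05 and 0.10 for KC. The flags of each spot, such as well above background, are other values that the program wrote, per the file headers.

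Spots of a probe were averaged as log2 signal, outlier-marked spots, 88 to 140 on each array, were dropped (0 spots were saturated), and the array's 75th percentile over non-control probes was subtracted. Each probe well above background on at least 3 of 6 arrays was tested on its own with limma 3.58.1 (lmFit and eBayes, two-sided) in R 4.3.3, with Benjamini-Hochberg adjustment over all 34485 probes and a threshold of 0.05. All adjusted p-values are limma's. The brightest probe is the one with the highest mean over the 6 arrays. Accessions were matched to RefSeq names of GRCm38.p6, which named 33767 probes. The files name the build mm9, so positions are given only for RefSeq sequences. Where no array of a group measured a probe above background, its fold is a lower bound: the brighter group's mean was set against the dim group's mean of the larger of 2 values per array, the probe's own signal and the lowest one above background. Such a bound holds for the processed signal and can fail with another background correction. Arrays give no counting depth, and their number limits the precision.

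The genes, lists and naming rule were chosen with earlier results of these data known. Named were all probes of the 10 genes, Setdb1, Trim28, Zfp57, Igf2r and Igf1r, up to 4 called genes per related list and 2 per marker list with the smallest p, and the nearest profile to each gene. Alternatives were other scalings, background correction, the value table, other filters, 1 probe per gene, outlier spots kept, blocks, the second slide alone and each array left out. In simulated data for KCS against KC with 34485 probes, 0% of probes changed by 1 on the log2 scale were recovered, 46% of those changed by 2 and 82% of those changed by 4, with 1 false call. Only 50 probes were changed at each size there, whereas 59.1% of all probes were called in the real data. The adjusted p depends on the share of changed probes, so these rates do not apply to the real data. The name of the oncogenic allele is not reported here. Python 3.11.15 was used for tables and matplotlib 3.10.9 for figures.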

Additional observations from a re-analysis of the deposited data

How the results depend on the processing

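Over all probes, 20373 were called, 31531 with spike-in scaling, 38159 without the filter on dim probes and 16510 to 19117 with 1 array left out. Imprinted gene probes called higher were 3, but 16 with spike-in scaling, 5 on the second slide alone and 2 to 4 with 1 array left out. Those called lower were 4, but 2 with quantile normalization, with the filter on all 6 arrays, with 1 probe per gene, with the replicate block, with the slide block and on the second slide alone, 1 with median centring, 0 with spike-in scaling, 8 with normexp on the median signal (added after seeing the data) and 2 to 4 with 1 array left out. Of all 34485 probes, 9233 were called higher and 11140 lower in the main fit. These counts were 30636 and 895 with spike-in scaling and 12132 and 8258 with median centring. They were 8169 and 19399 with normexp and 7425 and 9810 on the second slide alone. The larger imprinted gene counts with spike-in scaling and normexp thus went with those of the whole array. Spike-in scaling and median centring add the same amount to every probe, 2.88 and 0.35, while quantile normalization moves the median of all probes by 0.18 and normexp by -0.50. By that addition alone spike-in scaling gave a positive sign to Igf2 (1.89, second probe 1.98), Peg3 (2.37), Plagl1 (2.44), Dlk1 (0.25, second probe 1.38), the third tested Meg3 probe (2.80) and Grb10 (2.51, second probe 2.76). Normexp turned Plagl1 (0.12, second probe -0.71) and the second Mest probe (-1.19), and gave a relative Dlk1 value of -1.17 and an Igf2 value of -0.42 against the median of all probes. Probes near 0 turned elsewhere: the third Meg3 probe was 0.020 with quantile normalization, 0.28 with median centring and 0.19 on the second slide, and the second Grb10 probe 0.11 and 0.23 with quantile normalization and median centring. With 1 array left out the brightest Meg3 probe ran from -0.17 to 0.90, the third from -0.35 to 0.39, the second Mest probe from -0.14 to 1.12 and the second Grb10 probe from -0.25 to 0.012. The turns with median centring also follow from its constant. The cause of the turns with quantile normalization and normexp was not tested, and the others come from fewer arrays.

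The replicate block called 20321 probes and lost Cdkn1c (adjusted p = 0.0535) and the second probes of Igf2 (0.0955) and Dlk1 (0.0676). The deviations of same-numbered arrays correlated at 0.31, 0.036 and 0.12 for numbers 1 to 3, and KCS replicate 2 correlated best with KC replicate 3 (0.18), so the numbers were not taken as pairs. Of 313 single-probe values under the alternatives, 254 kept direction and side of the threshold, 24 turned sign (11 of them by the constant of spike-in scaling or median centring), 25 lost and 10 gained a call. The brightest probes of H19, Ndn and Dlk1 kept direction and call under every alternative run except spike-in scaling for Dlk1. Normexp on the mean signal was not run because the files used here hold median signals. Signal near background limits the second probes of Igf2, Dlk1 and Mest.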
